A study of Danio rerio with 24 samples.

Results

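Embryos injected with Cas13d mRNA and no guide RNA were compared with uninjected embryos at 6 hours, to measure what the injection and the nuclease do to the transcriptome when no transcript is targeted. The members are the 4 libraries that the labels place in these groups, 2 with Cas13d mRNA alone and 2 uninjected, of 24 libraries in the series, and every gene measured in them. All 4 came from transgenic zebrafish (Danio rerio) embryos whose mothers supplied an RFP mRNA. The injected embryos received 200 to 250 pg of RfxCas13d mRNA each at the 1-cell stage. The uninjected embryos received nothing, and none of the groups analysed here was injected with buffer or with another mRNA alone, so that injection itself and Cas13d cannot be told apart. A further guide-free group of 2 libraries received the same Cas13d mRNA with 40 pg of a gfp reporter mRNA that carries the 3′ untranslated region of nanos. Other groups of 2 libraries received the same Cas13d mRNA with 500 to 600 pg of guides against nanog, rfp or dnd. The dnd guides were given together with the reporter. Total RNA was poly(A)-selected and sequenced as single reads of 75 bp. The series states that replicates are biological without saying what separates them, so the spread between them may be partly technical.

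Cas13d is a nuclease that binds a guide RNA and cuts RNA that matches the guide. Once bound to a matching target, some Cas13 enzymes also cut other RNA nearby. A control with nuclease and no guide gives the level from which knockdown is read. Since cutting of nearby RNA needs a bound target, a control without guides does not measure it. In the early zebrafish embryo, mRNAs loaded by the mother are cleared while Nanog, Pou5f3 and Sox19b switch on the embryo's own genome. At 6 hours both processes are under way, and a whole-embryo library holds a mixture of maternal and zygotic transcripts.

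Expression is given as deposited in TPM, the share of a transcript in its library after division by transcript length, scaled to the same total in every library. How deeply each library was sequenced cannot be read from TPM, so depth is unknown here, and a whole-embryo value does not separate fewer cells of a type from less RNA per cell. Fold changes are on the log2(TPM + 1) scale, which understates the change of low transcripts, and are signed as Cas13d minus uninjected. Of 32521 rows in the table, 15253 with a mean of at least 1 TPM over the 12 libraries of the same transgenic set were tested with limma. The 12 libraries, which include those with guides, share 1 estimate of the spread. The spread between replicates with guides thus enters every SE, interval and p of the main fit. A gene was called when its Benjamini-Hochberg adjusted p lay under 0.05 and its log2 fold change reached 1 in either direction.

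The 4 libraries differed little from each other and did not fall into clean pairs. Across the tested genes, the Cas13d replicates correlated with a Pearson coefficient of 0.984 and the uninjected replicates with one of 0.988. Cas13d replicate 1 and uninjected replicate 1 gave 0.987, so that this injected library was as close to an uninjected library as to its own replicate. The median absolute log2 difference was 0.178 both between the Cas13d replicates and between these unlike libraries. The most distant pair was Cas13d replicate 2 and uninjected replicate 2, with a coefficient of 0.968 and a median difference of 0.305. The RFP transcript was 1394 and 1491 TPM with Cas13d mRNA against 1253 and 1494 TPM without, overlapping, with a log2 difference of 0.08 (95% interval -0.44 to 0.59, limma adjusted p 0.928). The Cas13d transcript itself was not analysed here.

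One row was called, which is 0.00656% of the genes tested. At an unadjusted p under 0.05 there were 2044 rows (13.4%), 1468 higher (9.62%) and 576 lower (3.78%). The median log2 difference over all genes was 0.09, with 62.9% of them above 0. Under median-of-ratios scaling that median was -0.008 and the rows at an unadjusted p under 0.05 were 1761 higher and 1754 lower, and under quantile normalization they were 1685 higher and 1704 lower. The lean of the single-gene differences towards higher values thus depended on the scaling. Both of these scalings bring the libraries to a common level by construction, so their balanced counts cannot test the lean. Rescaled without genes over 10000 TPM, 2412 were higher and 1076 lower. For 12187 genes (79.9%) the whole 95% interval lay inside a change of 1 log2 unit either way, and with a pseudocount of 0.1 for 9710. The median half-width of that interval was 0.56 below 5 TPM and 0.33 at 1000 TPM and above, so the interval was usually narrower than 1 unit on either side at every level. The replicates of the groups did not overlap for 5745 genes higher (37.7%) and 2690 lower (17.6%) with Cas13d.

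**Figure D1:**
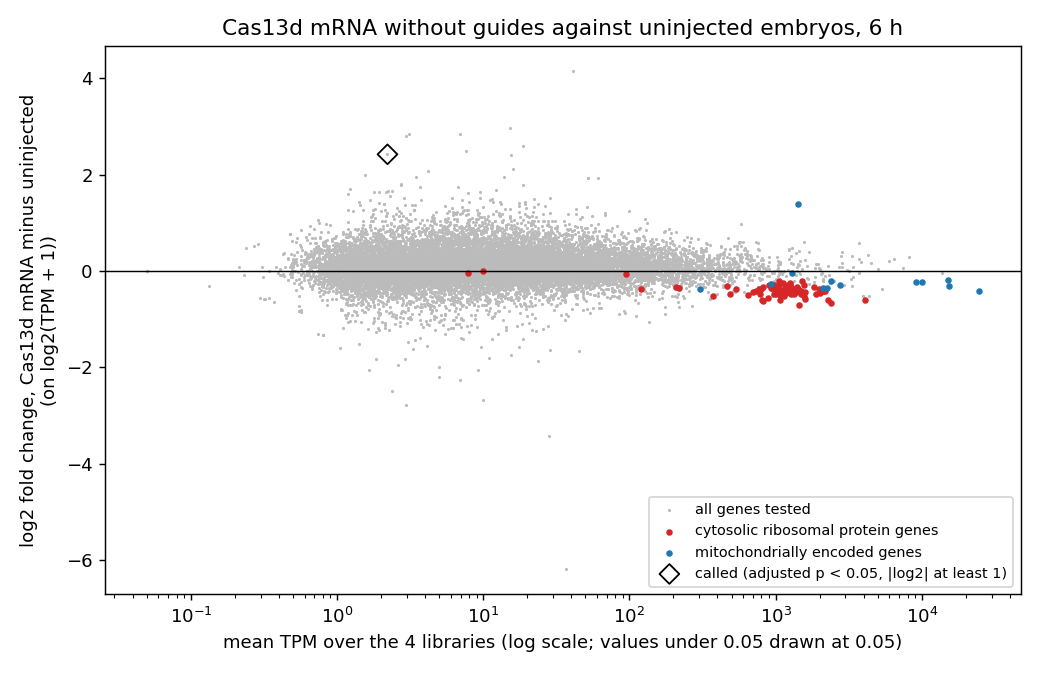
Log2 fold change of Cas13d mRNA minus uninjected (y axis, on log2(TPM + 1)) against the mean TPM of the 4 libraries (x axis, log scale) for all 15253 genes tested, with the ribosomal protein genes in red, the mitochondrially encoded genes in blue and the single called row as a diamond. The cloud is centred near 0 and widest at low TPM, and the ribosomal protein genes lie together below 0.

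The called row is a copy of the U1 small nuclear RNA, the RNA that recognises 5′ splice sites, and it has several copies in the table. This row (RF00003, ENSDARG00000110665) was 3.61 and 5.24 TPM with Cas13d mRNA and listed at 0 in both uninjected libraries, a fitted log2 difference of 2.42 (SE 0.27, adjusted p 0.008 in limma). A second copy (ENSDARG00000115069) held exactly the same value as the called row in 8 of the 12 libraries. In the uninjected libraries that second copy was 9.10 and 10.04 TPM. In the libraries with rfp guides, also injected with Cas13d mRNA, the called row was listed at 0 as well. There the second copy was 24.7 and 21.67 TPM. Summed, the 2 copies were 7.22 and 10.48 TPM with Cas13d against 9.10 and 10.04 TPM without, which overlapped. The whole symbol covers 182 rows, which summed to 417 and 365 TPM against 344 and 529.5 TPM, again overlapping. Across the alternatives the adjusted p of the called row ran from 3.6e-05 with a pseudocount of 0.1 to 0.189 with the replicate number as a block in the 4 libraries alone, and without uninjected replicate 1, uninjected replicate 2 or Cas13d replicate 2 it was 0.051, 0.051 and 0.068. When rows that share a symbol were summed before the fit, an alternative chosen after seeing the data, no gene was called and 2075 had an unadjusted p under 0.05.

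**Figure D2:**
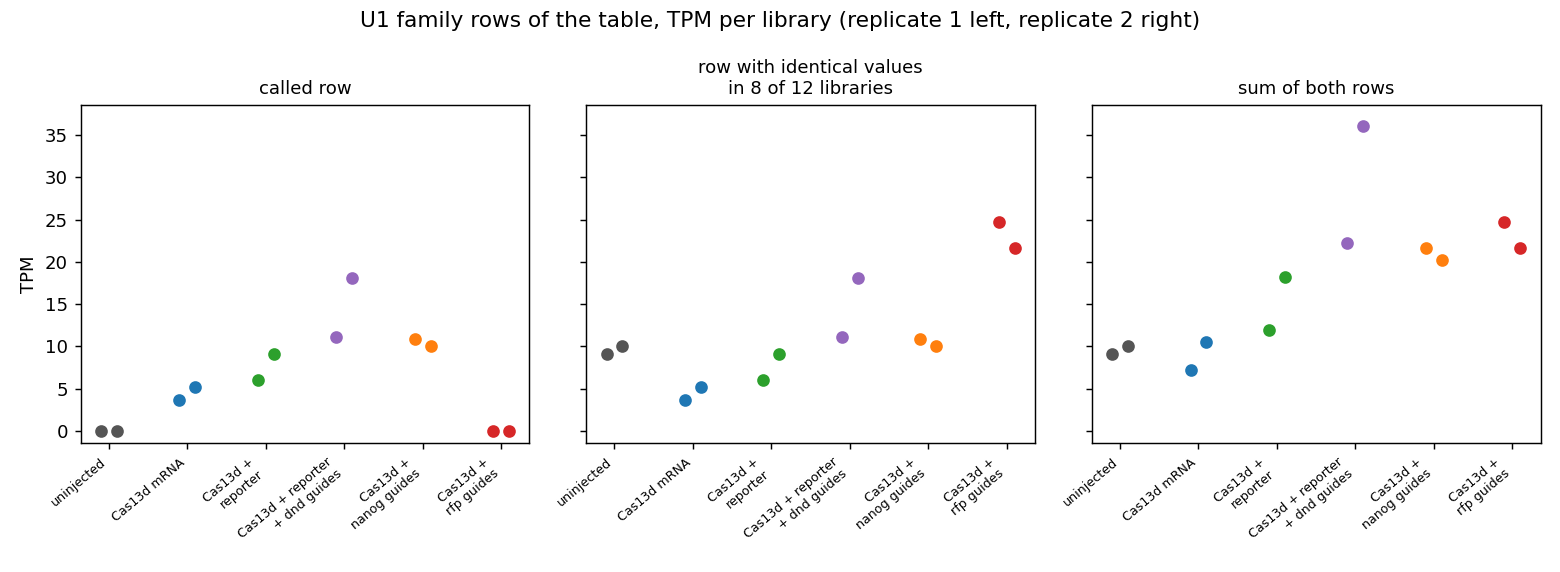
TPM per library (y axis) in the 6 groups of the transgenic set for the called U1 row, the row that shares its value in 8 of 12 libraries, and their sum; each point is a library. The called row is at 0 in the uninjected libraries, where its partner is at 9.10 and 10.04 TPM. It is also at 0 in the rfp guide libraries, where its partner is at 24.7 and 21.67 TPM. The sums of the uninjected and Cas13d libraries overlap.

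Among genes with a mean of at least 5 TPM and no overlap between replicates, the highest fold changes belonged mainly to unnamed loci and to other small nuclear RNAs. None of them passed the adjusted test. The U2 small nuclear RNA, which pairs with the branch site of introns, had a pair of rows (RF00004) with identical values of 112 and 53.6 TPM against 14.6 and 26.4 TPM, a log2 difference of 1.93 each (adjusted p 0.188). Its 11 rows together gave 922 and 686 TPM against 445 and 645 TPM, higher in both Cas13d libraries by a narrow margin. The transcript si:ch211-235f12.2 was 48.5 and 102 TPM with Cas13d, a log2 difference of 4.16 (SE 0.88, adjusted p 0.188). The uninjected replicates of this transcript lay far apart, at 15.04 and 0 TPM.

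Named protein-coding genes in the same class included fbxo28 and LIN28A. The F-box gene fbxo28, whose family supplies substrate receptors of ubiquitin ligases, was 19.4 and 40.2 TPM against 9.79 and 5.59 TPM (log2 difference 1.78, SE 0.40, adjusted p 0.199). LIN28A, which in mammals blocks maturation of let-7 miRNAs, was 10.7 and 28.5 TPM against 6.57 and 3.36 TPM (1.69, SE 0.45, adjusted p 0.239). In both genes Cas13d replicate 2 held the highest value and uninjected replicate 2 the lowest, the same most distant pair of libraries as across all genes.

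The lowest fold changes also fell mostly on small RNA families and multi-copy genes. One row of RF00324 (ENSDARG00000102909) was listed at 0 in both Cas13d libraries and at 60.2 and 87.1 TPM in the uninjected ones, and it was also at 0 in 1 reporter library but at 97.0 TPM in the other (adjusted p 0.239 for Cas13d against uninjected). The 4 rows of RF00211 summed to 76.6 and 77.7 TPM against 138 and 149 TPM. Rows of the histone H4 gene hist1h4l made up 2 of the lowest 12. All 25 rows of that histone symbol summed to 190 and 179 TPM against 248 and 341 TPM, lower in both Cas13d libraries. The ferritin-like gene fthl27 had a row at 8.66 and 18.6 TPM against 32.0 and 55.8 TPM, while its 2 rows together were 2108 and 1899 TPM against 2237 and 2326 TPM. Each of these symbols has several rows, and how reads were split among the rows was not tested. The RNA was poly(A)-selected. How far each library retained small RNAs, among them the U1 and U2 rows above, and histone mRNAs was also not tested.

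The broadest pattern lay in the cytosolic ribosomal protein genes, which build the subunits of the ribosome and are among the most abundant mRNAs of the embryo. None was called, yet all 83 had a log2 difference below 0, with a median of -0.41 against 0.09 over all genes tested. Of the 83, 71 had an unadjusted p under 0.05 on the lower side, where 3.78% of all genes did, and none on the higher side. The replicates did not overlap for 80 of them, all lower, where 17.6% of all genes were lower without overlap. For rpl12 the Cas13d libraries were 1193 and 1015 TPM and the uninjected ones 1659 and 1952 TPM, a log2 difference of -0.71 (SE 0.15, 95% interval -1.03 to -0.39, adjusted p 0.188). For rps20 they were 2006 and 1693 TPM against 2685 and 3154 TPM (-0.66, SE 0.15, adjusted p 0.199). Each is a structural protein of a ribosomal subunit, and in each both Cas13d libraries lay below both uninjected ones. At the other end of the list, differences reached -0.007. The 95% interval stayed inside 1 log2 unit for 82 of the 83 genes.

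Summed over the list, ribosomal protein mRNAs made up 8.97% and 7.88% of the Cas13d libraries and 10.6% and 12.1% of the uninjected ones. They made up 6.62% and 7.19% of the libraries with the reporter as well. The direction of the list median was the same under each scaling, at -0.53 with median-of-ratios scaling, -0.28 with quantile normalization and -0.44 when genes over 10000 TPM were left out of the total. The genes of this list also differed between replicates: the median was 0.18 higher in uninjected replicate 2 than in replicate 1, and in Cas13d replicate 2 it was -0.19 relative to replicate 1. Leaving out uninjected replicate 2 gave a list median of -0.32, with 2 of the 83 genes above 0. Leaving out Cas13d replicate 2 also gave -0.32, with 3 above 0. With either of these libraries left out, far fewer of the 83 genes reached an unadjusted p under 0.05. The count over all genes tested fell as well. Without Cas13d replicate 1 the list median was -0.50, and without uninjected replicate 1 it was also -0.50. The list was described in these libraries with earlier results known, and its direction is not independent evidence.

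**Figure D3:**
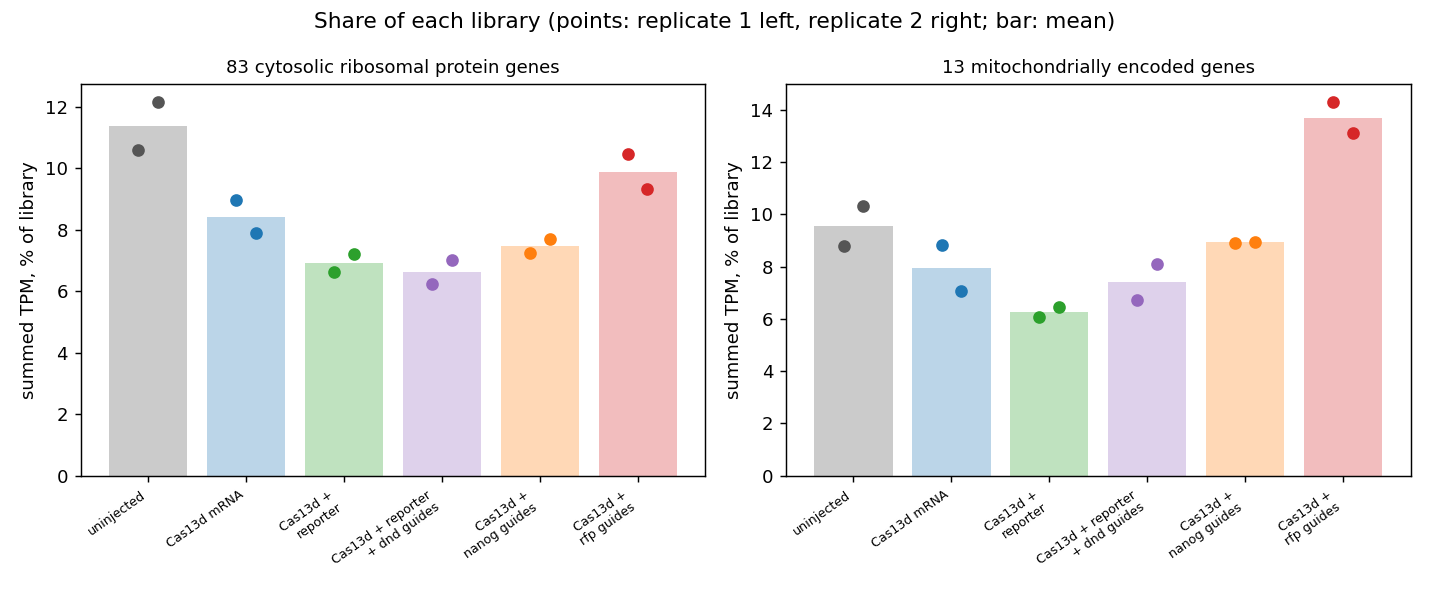
Summed TPM as a percentage of each library (y axis) for the 83 ribosomal protein genes and the 13 mitochondrially encoded genes in the 6 groups of the transgenic set; points are libraries and bars their means. The ribosomal protein share is 8.97% and 7.88% with Cas13d mRNA against 10.6% and 12.1% uninjected, while the mitochondrial shares of those groups overlap.

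The 13 mitochondrially encoded mRNAs, which specify subunits of the respiratory chain and the ATP synthase, had a median of -0.26, with 12 of 13 below 0. At an unadjusted p under 0.05, 1 was higher and 4 were lower. Over all genes tested, 62.9% were above 0, and 9.62% were higher and 3.78% lower at that threshold. The list median was -0.13 without Cas13d replicate 2, -0.40 without Cas13d replicate 1, and -0.18 without uninjected replicate 2. Under quantile normalization it was -0.17, with 9 of 13 below 0. At an unadjusted p under 0.05, 1 was then lower, where 1704 of all 15253 genes were. The exception was mt-atp8, a subunit of the ATP synthase, at 2148 and 1927 TPM with Cas13d against 1063 and 573 TPM (log2 difference 1.38, SE 0.23, 95% interval 0.89 to 1.87, adjusted p 0.188). Both Cas13d libraries were well above both uninjected libraries. Its reading frame overlaps that of mt-atp6, which was 9161 and 7644 TPM against 8785 and 10927 TPM, overlapping between groups, and reads in the shared stretch cannot be assigned to 1 gene with certainty. The abundant mt-co1, a cytochrome oxidase subunit, was 23789 and 18548 TPM against 26349 and 29644 TPM (-0.41, adjusted p 0.303). Together the mitochondrial mRNAs were 8.84% and 7.06% of the Cas13d libraries and 8.80% and 10.3% of the uninjected ones.

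Of the 3 factors that open the zygotic genome, nanog and pou5f3 were higher in both Cas13d libraries than in both uninjected ones, as were 37.7% of all genes tested. None of the 3 was called. Nanog, a homeodomain factor, was 324 and 253 TPM against 193.5 and 172 TPM, a log2 difference of 0.65 (SE 0.17, 95% interval 0.28 to 1.02, adjusted p 0.239). Pou5f3, a POU-domain partner of Nanog, was 1570 and 1716 TPM against 1321 and 1149 TPM (0.41, adjusted p 0.334). Sox19b, the SoxB1 member of the trio, was 39.4 and 36.3 TPM against 38.3 and 33.7 TPM, with overlapping libraries and a difference of 0.07 whose sign turned under median-of-ratios scaling.

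The first zygotic transcripts, a list of 32 tested genes expressed as the embryo's genome switches on, had a median of 0.16, with 8 genes at an unadjusted p under 0.05 on the higher side and 1 on the lower side. These shares, 8 and 1 of 32, stand beside 9.62% and 3.78% of all genes. The list median was 0.15 without uninjected replicate 2 and 0.08 without Cas13d replicate 1. Under median-of-ratios scaling it was 0.04, with 10 genes higher and 4 lower, beside 1761 and 1754 of all 15253 genes. The Hairy-related repressor gene her5 was 34.6 and 26.2 TPM against 17.5 and 15.7 TPM (0.82, SE 0.19, adjusted p 0.199). The zinc finger gene blf was 290 and 323 TPM against 188 and 189 TPM (0.70, SE 0.16, adjusted p 0.199). In both genes the lower Cas13d library was above the higher uninjected one. In the main fit the single gene on the lower side was her3, another Hairy-related repressor, at 4.81 and 5.47 TPM against 9.51 and 8.95 TPM.

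The patterning lists were close to all genes in their medians. Their main counts at an unadjusted p under 0.05 stand beside 9.62% higher and 3.78% lower over all genes tested. The ventral and mesoderm list (29 tested) had a median of 0.00, with 4 genes higher and 1 lower at an unadjusted p under 0.05. Under median-of-ratios scaling its median was -0.11 with 3 higher and 7 lower, beside 1761 and 1754 of all 15253 genes. The homeobox gene vent, a target of BMP signalling, was 76.9 and 71.1 TPM against 54.5 and 28.4 TPM (0.89, adjusted p 0.239), and the T-box gene tbx16 was 298 and 293 TPM against 231 and 207 TPM. The ligand gene wnt8a went the other way in its more abundant row (ENSDARG00000078507), at 41.4 and 36.4 TPM against 56.0 and 58.6 TPM (-0.55, adjusted p 0.255). The dorsal list (18 tested) had a median of 0.03 with 1 gene higher at that threshold. Its Bmp antagonist chrd was 122 and 119 TPM against 122 and 138 TPM, and the notochord and tailbud gene tbxta was 497 and 501 TPM against 498 and 468 TPM, both overlapping. The Nodal and endoderm list (16 tested) had a median of 0.12 with 1 gene higher, and every one of its 95% intervals lay inside 1 log2 unit. Its Nodal-induced homeobox gene mixl1 was 116 and 118 TPM against 86.2 and 69.3 TPM (0.59, adjusted p 0.249).

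**Figure D4:**
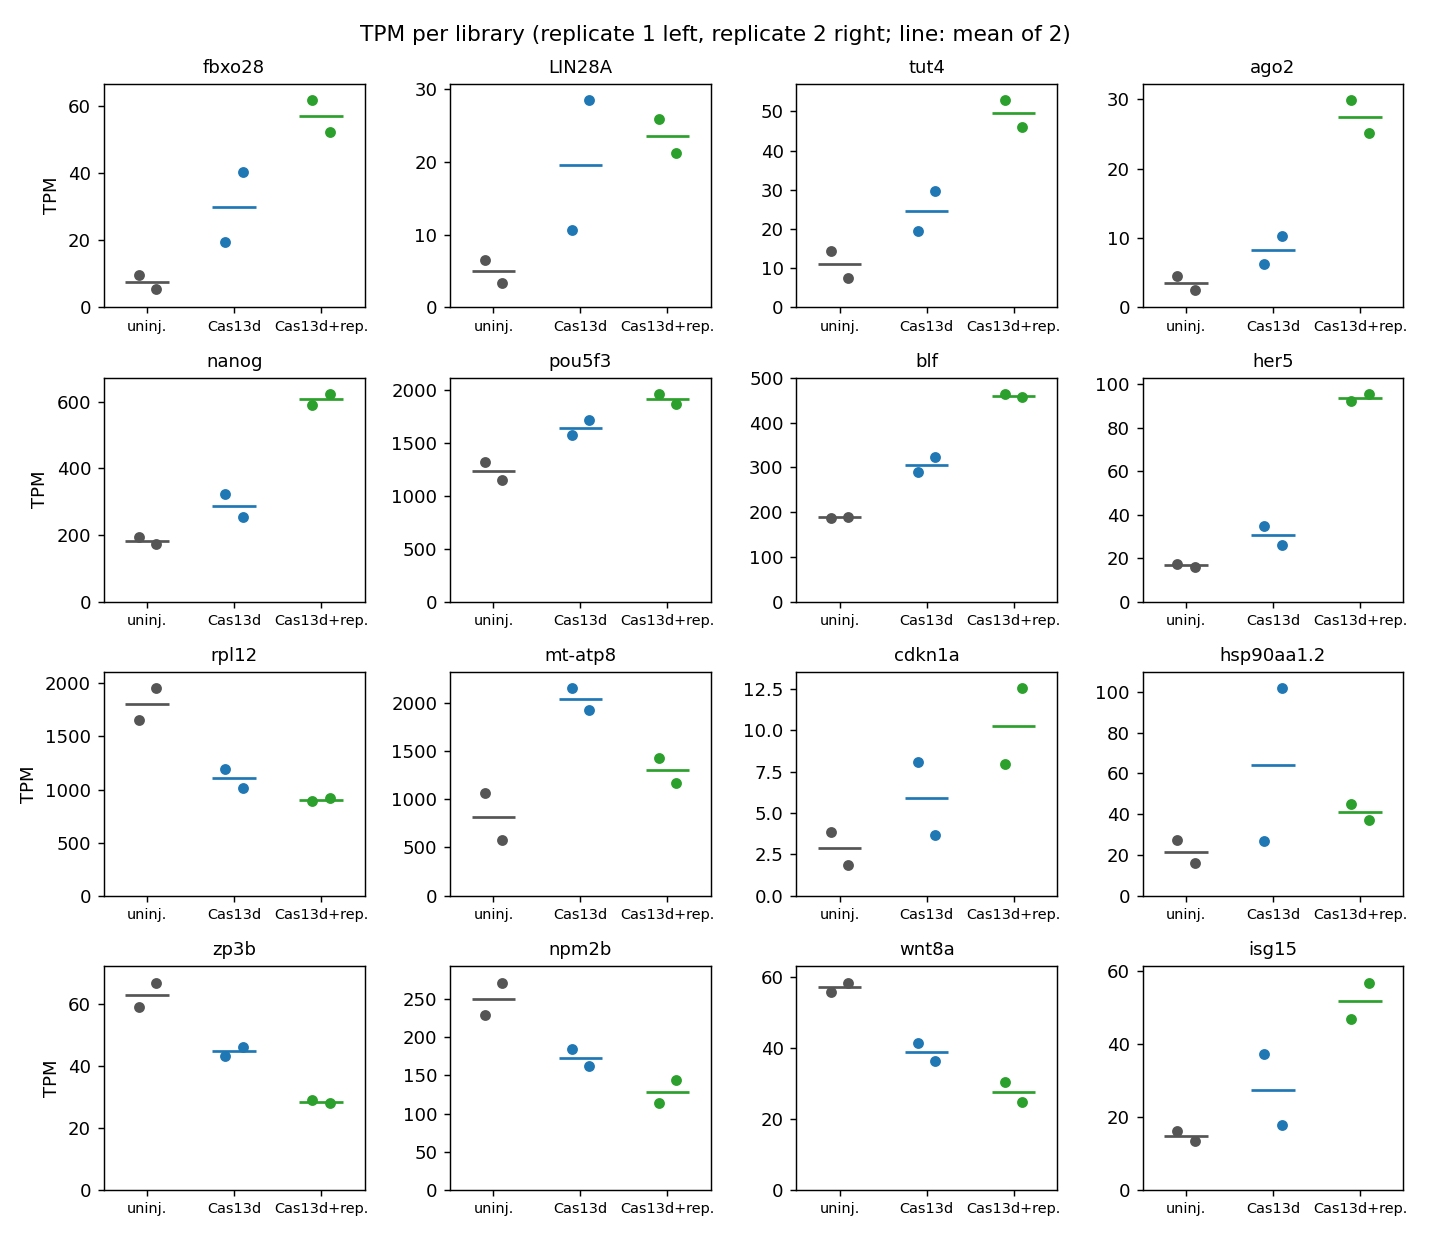
TPM of 16 genes (y axes from 0) in the uninjected, Cas13d mRNA and Cas13d mRNA with reporter libraries; points are libraries, replicate 1 on the left, and lines are means. For nanog, blf and her5 the Cas13d libraries lie between the uninjected and the reporter libraries, and for hsp90aa1.2 Cas13d replicate 2 alone is high at 102 TPM.

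Lists of other tissues and of maternal RNA showed no call. At an unadjusted p under 0.05, their main counts stand beside 9.62% higher and 3.78% lower over all genes tested. The enveloping layer, the outer epithelium of the embryo, had a median of 0.01 over 24 tested genes, 2 higher at an unadjusted p under 0.05. The yolk syncytial layer had one of 0.00 over 14, with 1 lower. The germ plasm and germ cell list had a median of 0.12 over 25 rows, 2 higher and 2 lower. The 2 lower rows share 1 symbol, zgc:171759, whose 5 rows summed to 38.5 and 36.3 TPM against 59 and 79.7 TPM. How reads were split among those rows was not tested. The oocyte maternal list had a median of -0.05 over 37 genes, with 3 higher and 5 lower. These became 2 and 9 under median-of-ratios scaling, where 1761 and 1754 of all 15253 genes were higher and lower. Without uninjected replicate 2 the list median was -0.02. Among its egg coat genes, zp2.1 was 96.8 and 92.0 TPM against 121 and 135 TPM, and zp3b was 43.1 and 46.1 TPM against 58.8 and 66.7 TPM (adjusted p 0.300 and 0.303). The nucleoplasmin gene npm2b, a histone chaperone of the egg, was 184 and 162 TPM against 229.5 and 272 TPM (-0.53, adjusted p 0.265). Another member of the list, stm, was 827 and 979 TPM against 657 and 546 TPM (0.59, adjusted p 0.247). With nanog guides stm was 105 and 142 TPM, and whether its RNA here is maternal or zygotic was not tested.

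The cell cycle inhibitor cdkn1a was 8.07 and 3.68 TPM against 3.88 and 1.86 TPM (0.80, adjusted p 0.328), and the groups overlapped. Its highest value was in Cas13d replicate 1.

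The heat shock and protein folding list had a median of 0.33 over 22 tested genes, and none was called. At an unadjusted p under 0.05, 5 were higher and 1 lower, beside 9.62% and 3.78% of all genes. Under median-of-ratios scaling the list median was 0.22, with 2 higher and 1 lower, beside 1761 and 1754 of all 15253 genes. The inducible chaperone gene hsp70.1 was 1.28 and 7.42 TPM against 1.16 and 0.44 TPM, and hsp70l was 1.02 and 9.23 TPM against 1.0 and 0.27 TPM. The inducible hsp90aa1.2 was 27.0 and 102 TPM against 27.2 and 16.0 TPM. In all 3 genes, chosen after their values were seen, Cas13d replicate 2 stood high, and replicate 1 was at the level of uninjected replicate 1. In hspe1 and hsf1 both Cas13d libraries were instead above both uninjected ones. Hspe1 was 136 and 154 TPM against 109 and 89.3 TPM (adjusted p 0.272). Hsf1 was 42.3 and 50.3 TPM against 31.7 and 23.8 TPM (adjusted p 0.291). Without Cas13d replicate 2 the list median was 0.14, and without uninjected replicate 2 it was 0.26. The constitutive chaperone hspa8 was 4926 and 4384 TPM against 5577 and 6454 TPM (-0.37, adjusted p 0.296), lower in both Cas13d libraries.

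Sensors and targets of innate RNA detection were mostly too low to test, with 16 of 35 rows passing the filter. Their median was 0.16. At an unadjusted p under 0.05, where 9.62% of all genes tested were higher, 1 gene of the 16 was higher. This was isg15, a ubiquitin-like protein induced by interferon, at 37.2 and 17.7 TPM against 16.1 and 13.5 TPM (0.77, SE 0.28, adjusted p 0.294). Its Cas13d replicates differed by more than replicate 2 differed from the uninjected libraries. The RNA editing enzyme gene adar was 50.9 and 63.6 TPM against 50.1 and 43.8 TPM (0.28, adjusted p 0.655).

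RNA decay genes had a median of 0.16 over 72 tested, with 7 higher and none lower at an unadjusted p under 0.05, a share near the 9.62% of all genes that were higher. Without Cas13d replicate 2 the list median was 0.14, and without uninjected replicate 2 it was also 0.14. The terminal uridylyltransferase gene tut4, whose product tags RNA for decay, was 19.6 and 29.8 TPM against 14.4 and 7.63 TPM (1.13, SE 0.35, adjusted p 0.251). Under median-of-ratios scaling the decay list had a median of 0.05 with 9 genes higher and 7 lower, beside 1761 and 1754 of all 15253 genes. Without genes over 10000 TPM 16 were higher and 3 lower, beside 2412 and 1076 of 15242. The small RNA and Argonaute list had a median of 0.16 over 20, with 5 higher, beside 9.62% of all genes, and none lower. That median was 0.18 without Cas13d replicate 2 and 0.16 without uninjected replicate 2. Under median-of-ratios scaling the small RNA list had a median of 0.06 with 6 genes higher and 1 lower. Its slicer gene ago2 was 6.26 and 10.3 TPM against 4.58 and 2.57 TPM (1.02, SE 0.35, adjusted p 0.272), and tsn, whose product Translin forms an RNA-processing complex, was 119 and 129 TPM against 88.5 and 56.7 TPM (0.79, adjusted p 0.240).

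Proteins of the spliceosome, the complex in which U1 acts, had a median of 0.14 over 44 rows, with 2 higher and none lower at an unadjusted p under 0.05, and every 95% interval lay inside 1 log2 unit. Under quantile normalization 8 spliceosome genes were higher. All 44 translation initiation and stress genes also had intervals inside 1 log2 unit, with a median of 0.03, 1 higher and 2 lower. Under median-of-ratios scaling their median was -0.09 with 1 higher and 13 lower, and under quantile normalization 2 were higher and 11 lower. List counts under these scalings in this paragraph stand beside larger counts over all 15253 genes. Those were 1761 higher and 1754 lower under median-of-ratios scaling, and 1685 and 1704 under quantile normalization. The main counts in this paragraph stand beside 9.62% higher and 3.78% lower over all genes tested. Cell cycle genes (40 tested) had a median of 0.13 with 4 higher, apoptosis genes (23) one of 0.09 with 2 higher, and immediate early genes (21) one of 0.11 with 2 higher. Without uninjected replicate 2 these medians were 0.08, 0.07 and 0.12. Genes of the unfolded protein response (29) had a median of -0.01 with 2 higher and 1 lower, which became -0.12 with 2 higher and 10 lower under median-of-ratios scaling and 2 and 6 under quantile normalization. Its chaperone hspa5 was 108 and 95.9 TPM against 122 and 132 TPM (-0.31, adjusted p 0.456), and the factor atf4a was 477.5 and 442 TPM against 533 and 559 TPM (-0.25, adjusted p 0.470). Common reference genes (18) had a median of 0.05 with 2 lower, and of -0.07 with 7 lower under median-of-ratios scaling. The 2 lower genes were rps18 (-0.43) and rpl13a (-0.36), which are also cytosolic ribosomal protein genes. Actb1 was 3089 and 3161 TPM against 2954 and 3182 TPM, overlapping.

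**Figure D5:**
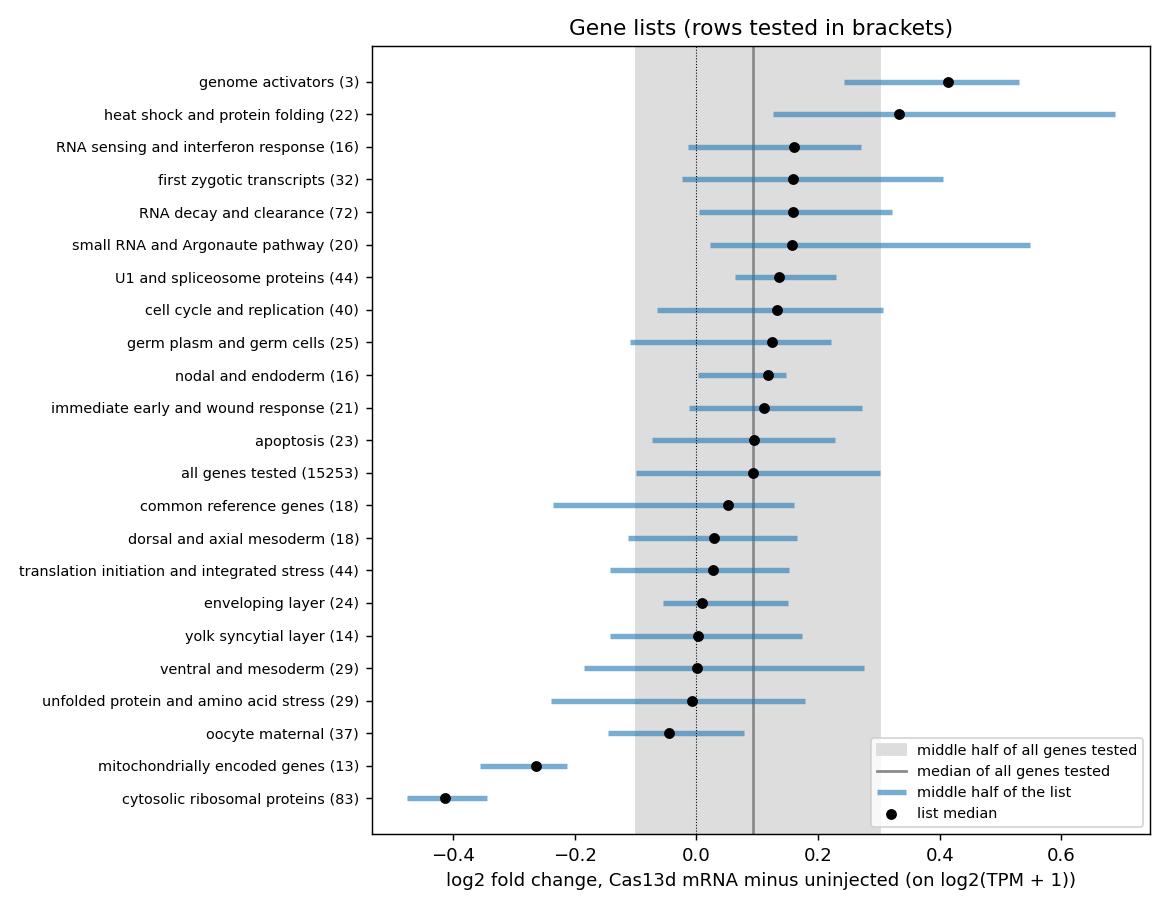
Median (points) and middle 50% (bars) of the log2 fold change, Cas13d mRNA minus uninjected on log2(TPM + 1), for the gene lists, with the number of rows tested in brackets and all genes tested as a grey band. The ribosomal protein median of -0.41 and the mitochondrial median of -0.26 lie below the grey band; the others lie within it or, for heat shock genes and genome activators, just above.

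Targets of guides in the series were also read without guides. The germ cell gene dnd1 was 11.2 and 10.3 TPM against 10.04 and 7.34 TPM, a log2 difference of 0.29 (95% interval -0.16 to 0.73, adjusted p 0.581). The target szrd1 was 450 and 422 TPM against 401 and 322 TPM, a difference of 0.28 (95% interval -0.11 to 0.66). For nanog, dnd1 and szrd1, both Cas13d libraries were above both uninjected ones, where 37.7% of all genes tested were. None of these differences passed the adjusted test. For RFP, also a guide target of the series, the libraries of the groups overlapped.

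The second guide-free group, Cas13d mRNA with the reporter, gave a larger distance from the same uninjected libraries. With both guide-free groups averaged against the uninjected embryos, 667 genes (4.37%) were called, 606 higher (3.97%) and 61 lower (0.4%). Under median-of-ratios scaling 397 were higher and 108 lower. The comparison shares the uninjected and the Cas13d libraries with the one above and is not an independent repeat. It rested on uninjected replicate 2, without which 12 genes were called, and 429 were called without Cas13d replicate 2. The reporter group alone differed from uninjected embryos in 1524 genes (9.99%) and from Cas13d mRNA alone in 128 genes (0.839%). The nanos3 gene was 1432 and 1646 TPM in the reporter libraries, whose injected mRNA carries nanos sequence, against 75.5 and 68.8 TPM with Cas13d alone and 60.3 and 51.8 TPM uninjected.

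In this wider comparison nanog rose by 1.19 on the log2 scale (SE 0.15, adjusted p 0.003), with 592 and 623 TPM in the reporter libraries. Her5 rose by 1.63 (adjusted p 9.7e-04), with 92.3 and 95.3 TPM in the reporter libraries, and its reporter level was above that with Cas13d alone by 1.61 (adjusted p 0.006). The transcripts si:ch211-235f12.2, fbxo28 and LIN28A rose by 4.80, 2.28 and 1.89 (adjusted p 0.006, 0.005 and 0.012). Ago2 rose by 1.84 and tut4 by 1.63 (adjusted p 0.006 and 0.009), isg15 by 1.26 (adjusted p 0.010), and mt-atp8 by 1.05 (adjusted p 0.009). For ago2 the reporter libraries held 29.85 and 25.11 TPM, above Cas13d alone by 1.65 on the log2 scale (adjusted p 0.045). The averages for nanog, her5 and ago2 thus join groups that differed from each other. Reporter against Cas13d alone did not pass for tut4, isg15, si:ch211-235f12.2, fbxo28, LIN28A and mt-atp8 (adjusted p 0.113 to 0.689). In mt-atp8 the reporter libraries, at 1431 and 1168 TPM, lay below those with Cas13d alone. Without uninjected replicate 2, her5 still rose by 1.56 (adjusted p 0.036). Without that library the increase of nanog was 1.1, that of si:ch211-235f12.2 was 2.80 and that of mt-atp8 was 0.61, and none passed (adjusted p 0.071, 0.0501 and 0.192); fbxo28, LIN28A, ago2, tut4 and isg15 also did not pass, at an adjusted p of 0.127 to 0.221.

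Ribosomal protein genes fell in the wider comparison, 74 of 83 at an adjusted p under 0.05 where 2.76% of all genes did, though each by less than 1 log2 unit. Rpl12 fell by 0.85 and rps20 by 0.89 (adjusted p 0.005 for each). Without uninjected replicate 2 none of the 83 passed. The FoxO transcription factor gene foxo3b rose by 1.63 (adjusted p 0.005), and its adjusted p was 0.088 without uninjected replicate 2. For foxo3b the reporter level was above that with Cas13d alone by 1.53 (adjusted p 0.023). Of 37 oocyte maternal genes, 8 fell and 3 rose at an adjusted p under 0.05, where 2.76% and 10.7% of all genes did. The egg coat genes zp2.1 and zp3b fell by 0.75 and 0.80 (adjusted p 0.009 and 0.011), and btg4, which in the mouse egg brings the deadenylase to maternal mRNA, rose by 1.05 (adjusted p 0.008). Without uninjected replicate 2 none of the 37 passed, and btg4 also missed the threshold without uninjected replicate 1 (adjusted p 0.055).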

How the data were processed

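The authors deposited 1 table of TPM for 32520 Ensembl gene identifiers and an RFP row. Per the submitters' processing notes, bcl2fastq 2.18, STAR 2.6.1c, RSEM and danRer11 were used; the RSEM version, annotation, strand setting and filters are not given in the sources used here, so overlapping, antisense and multi-copy genes are uncertain. Each of the 24 columns was assigned to a sample by its title. Values were analysed as log2(TPM + 1) in limma 3.58.1 (R 4.3.3; lmFit, contrasts.fit, eBayes with trend) with 1 term per group over the 12 libraries of the transgenic set (6 residual degrees of freedom), two-sided, with Benjamini-Hochberg adjustment over 15253 genes. Adjusted p-values are from this model, or from the same model under the setting or without the library named beside them. The model was also run on simulated data, whose setting and result are not given here. With 2 libraries per group, no depth and no intervals from counts, precision comes from the replicate spread.

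The genes named are the called row, the 12 highest and 12 lowest (mean of at least 5 TPM, no overlap, unadjusted p under 0.05), 2 by p and 2 by level per list, and a short fixed set; a few more list members (such as hsp70.1, hsp70l, hsp90aa1.2 and the egg coat genes) were chosen after their values were seen. The libraries, the 24 lists and the rule were chosen with earlier results of these data known. The rule's sensor genes for cytosolic RNA had a mean under 1 TPM or no matching symbol and were not tested. One list and 1 gene are not reported here. Symbols U1 and U2 come from a reference table holding 29201 of the identifiers. Replicate numbers were not shown to pair libraries. Alternatives were another pseudocount, filter, scaling, fit, block and the omission of each library.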

Additional observations from a re-analysis of the deposited data

How the results depend on the processing

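The count of 1 called gene in Cas13d against uninjected embryos was 2 with no filter on low values, 7 at a mean of at least 5 TPM, 4 in a fit of the 4 libraries alone and 17 with all 24 libraries. It was 0 under median-of-ratios scaling, quantile normalization, rescaling without genes over 10000 TPM or without RNA family rows, and with rows of a symbol summed. Leaving out 1 library, so that the lone sample is assumed to vary like the other groups, gave 0 to 8. The 2044 genes at an unadjusted p under 0.05 became 3515 with median-of-ratios scaling, 3389 with quantile normalization, 3488 without genes over 10000 TPM and 602 to 1977 when 1 library was left out. The 667 guide-free calls became 128 with no filter, 443 (318 higher, 125 lower) with quantile normalization, 2055 with no fold minimum and 12 to 893 when 1 library was left out. A fit of the 4 libraries alone gave 3046 genes at an unadjusted p under 0.05, and a fit of all 24 libraries gave 2800. With no filter 23786 of 27855 genes had an interval inside 1 log2 unit, and with a pseudocount of 0.1 the count was 9710 of 15253. With the replicate number as a block the called counts were 1 and 667, 1836 genes had an unadjusted p under 0.05 and 12103 an interval inside 1 log2 unit, each within 1.5 times of the value without the block. Counts over single lists moved more with scaling, as given beside some of them, and with the library left out. Without uninjected replicate 2, or without Cas13d replicate 2, fewer heat shock, first zygotic and small RNA genes were higher at an unadjusted p under 0.05. Same-numbered Cas13d and uninjected libraries deviated with a correlation of -0.19; the crossed pairing, chosen after seeing the data, gave 238 calls and 4365 genes at an unadjusted p under 0.05 in 4 libraries, against 1 and 2054 with the numbers as given. Small differences changed sign. Under median-of-ratios scaling sox19b was -0.044, RFP -0.043 and tbxta -0.071, and under quantile normalization sox19b was -0.043 and tbxta -0.027. When 1 library was left out, sox19b ran from -0.018 to 0.16 and RFP from -0.052 to 0.20. Under quantile normalization mt-co1 was 0, since the top row of every library is set equal. The cause of the other moves was not tested. The unknown depth limits low transcripts most.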
